A study of Saccharomyces cerevisiae with 5 samples.

Results

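The 10 genes described here encode the phosphate-sensing pathway of budding yeast and the enzymes of its inositol pyrophosphate messengers: PHO4, PHO2, PHO80, PHO85, PHO81, VIP1, KCS1, DDP1, PHO92 and PHO23. They were chosen by name, and all 10 had at least 1 of the array's 9335 probe sets, 15 in all, since VIP1 had 6. Signals under 11.4, the 40th percentile of the deposited values, counted as background. Of the 10 genes 8 were at or above it on at least 2 of 5 arrays and were kept, among 4824 genes kept over the whole array. PHO2 and PHO92 were below it on every array.

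Expression was measured in strain W303 carrying a MYC-tagged PHO4 marked with TRP1 (PHO4-MYC::TRP1), and every array, 0 mM included, carried this allele. Log-phase cells were kept without phosphate for 3 h and then given 0, 0.01, 0.1, 1 or 10 mM phosphate for 80 min. There was 1 Affymetrix array per dose, which leaves any pair of doses without a replicate error.

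In the PHO pathway the cyclin-dependent kinase Pho85, with its cyclin Pho80, phosphorylates the transcription factor Pho4 and keeps it out of the nucleus when phosphate is plentiful. When phosphate is scarce the inhibitor Pho81 holds the kinase inactive, and Pho4 with its partner Pho2 turns on genes of phosphate uptake and scavenging. Pho81 carries an SPX domain, a fold that binds inositol pyrophosphates; Kcs1 and Vip1 are the kinases that make these molecules and Ddp1 is a phosphatase that breaks them down. Pho92 is a reader of methylated adenosine in mRNA, and Pho23 is a subunit of the Rpd3L histone deacetylase.

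The median signal per array ranged from 17.03 to 25.5. The median gene was 0.26 lower (log2) at 10 mM than at 0 mM in the deposited values, so differences are also given relative to it. Probe sets at the 3' end of ACT1 read 2.37, 3.00, 1.11, 2.19 and 2.02 times those at its 5' end in order of dose, a measure of RNA quality; the same ratio of TBP was 2.63, 4.52, 2.01, 2.35 and 1.51. Poly-A spike-in controls dropped 10.4-fold from 0 to 10 mM; scaled to them, every measured gene of the pathway was higher at 10 mM than at 0 mM, and the directions below are those of the deposited scaling. Of 4 alpha-specific mating genes 0 were kept, against 7 of 7 a-specific genes, with MFA2 at signals of at least 937. The kept a-specific ASG7 reached only 13.1, below the highest signals of the alpha-specific SAG1 and MF(ALPHA)1, 22.3 and 14.8. Of 5 sporulation genes 2 were kept, NDT80 and SPS1, with highest signals of 30.3 and 21.6.

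Of the kinase module and the messenger enzymes, DDP1, PHO85, PHO81 and KCS1 passed a test as lower at 0.1 mM phosphate and above than at 0 and 0.01 mM. The call of KCS1 was lost in 6 of 14 other settings. PHO80 had lower signal at those doses too without passing, and VIP1 depended on the probe sets used. In RNA of a whole culture, fewer cells with a transcript and less of it per cell cannot be told apart. None of the 8 measured genes passed the test as higher there in the deposited scaling, and between the ends of the doses PHO23 and PHO4 differed by 0.10 and 0.33 (log2). The comparison of 0 and 0.01 mM (2 arrays) with 0.1, 1 and 10 mM (3 arrays), called the step comparison, gave 4 of the 8 genes lower and 0 higher (limma, Benjamini-Hochberg adjustment over all 4824 genes). Over all genes it called 22.0% lower and 11.4% higher. At an unadjusted p under 0.05 it had 5 of the 8 lower and 0 higher, where 28.5% of all genes were lower and 16.0% higher. The split into these 2 sets of doses was noticed in earlier results of these arrays, so it describes them and is no independent test. A straight line in dose order had 2 of the 8 falling and 0 rising after adjustment, where 8.13% of all genes fell and 1.16% rose. At an unadjusted p under 0.05 it had 5 and 0 of the 8, against 23.7% and 8.35% of all genes. Signals at 10 mM were lower than at 0 mM by 2-fold or more in 5 of the 8 and higher in 0, where 21.2% and 7.52% of all genes were. Scaled to 1 median, the arrays left 3 of the 8 at least 2-fold lower and 0 falling on the line. Leaving out the array of 0, 0.01 or 1 mM also left 0 falling on the line, against 4 without that of 0.1 mM and 1 without that of 10 mM. The median difference of the 8 genes between 10 and 0 mM was -1.37 (log2), or -1.12 relative to the median gene.

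**Figure D1:**
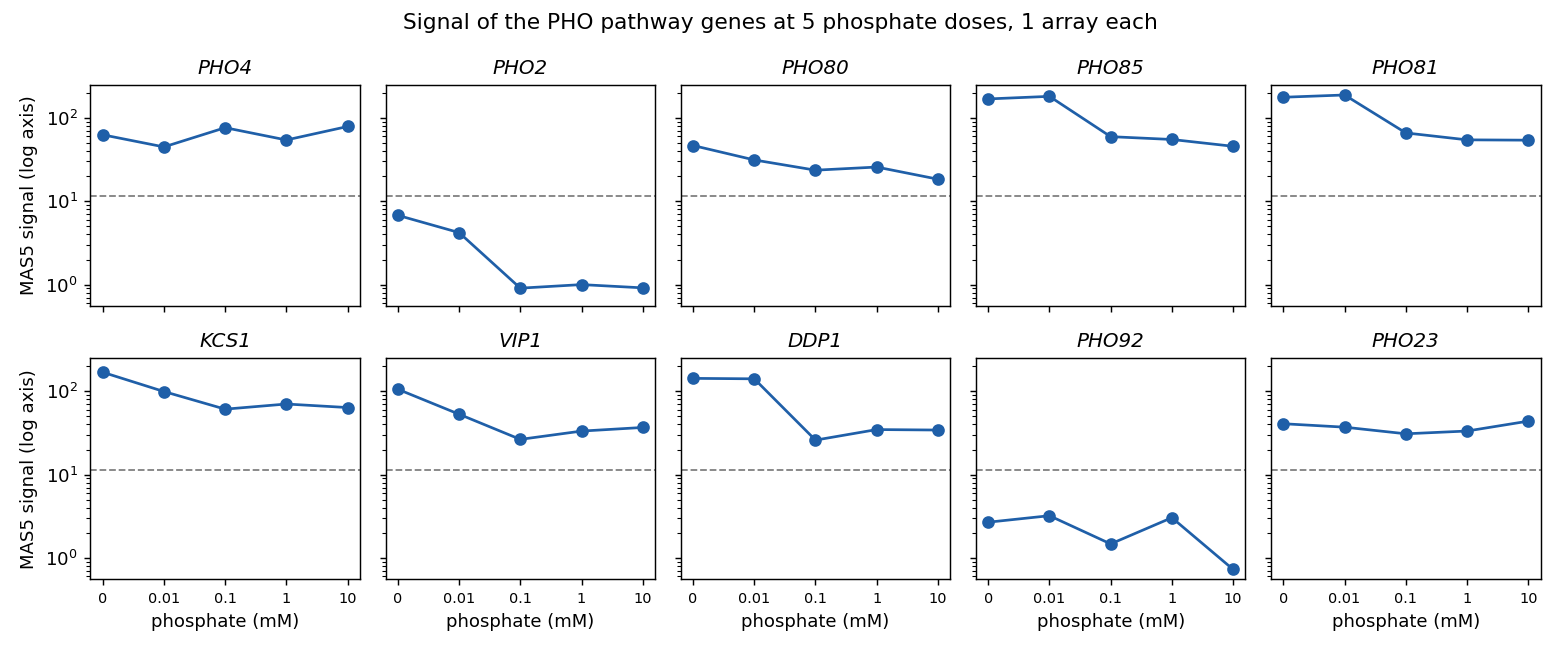
MAS5 signal (log axis) against phosphate dose for the 10 genes, 1 point per array, with the background level of 11.4 as a dashed line; VIP1 is shown by its brightest probe set. PHO85, PHO81 and DDP1 had similar signal at 0 and 0.01 mM and were lower from 0.1 mM on in the deposited scaling, and PHO2 and PHO92 lay below background throughout.

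PHO85, the kinase gene, had signals of 169, 181, 59.5, 55.1 and 45.6 in order of rising dose. The arrays of the 2 lowest doses were high and those of the other 3 low, with no overlap. Such a separation with lower values at the higher doses was found in 5 of the 8 genes and in 37.3% of all genes. PHO85 was 3.04-fold lower at 0.1 than at 0.01 mM and 3.70-fold lower at 10 than at 0 mM. Its step difference was -1.72 ± 0.21 (log2, SE, 5 arrays; limma, adjusted p = 0.00155), and 5.76% of all genes had one as low or lower. Its slope of -0.55 ± 0.12 per dose step had an adjusted p = 0.0415 in limma, a call that was lost in 9 of 15 other settings.

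PHO81, the gene of the kinase inhibitor and itself a target of Pho4, had signals of 177, 188, 66.0, 54.5 and 54.0 in the same order. These are high at 0 and 0.01 mM and low from 0.1 mM on, without overlap. The fold between 0.01 and 0.1 mM was 2.85 and that between 0 and 10 mM was 3.27, both lower at the higher dose. The step difference was -1.66 ± 0.20 (adjusted p = 0.00156, limma), and the slope of -0.52 ± 0.12 had an adjusted p = 0.0443, a call lost in 8 of 15 other settings.

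PHO80, the gene of the cyclin in this kinase, was dimmer, with signals of 46.6, 31.3, 23.6, 25.7 and 18.4. Its values at 0.1 mM and above were all under those at 0 and 0.01 mM, but a larger part of the difference lay between 0 and 0.01 mM (1.49-fold) than between 0.01 and 0.1 mM (1.33-fold). From 1 to 10 mM PHO80 was 1.40-fold lower, a difference matched or exceeded in this direction by 4.60% of genes. It did not pass in either comparison: the step difference was -0.77 ± 0.26 (adjusted p = 0.0563, limma) and the slope -0.30 ± 0.09 (adjusted p = 0.0718). Without the array of 0.01 mM the step difference was -1.06 with an adjusted p = 0.0204.

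DDP1 had the largest step of the 8 genes. The gene encodes a phosphatase of the Nudix family that acts on inositol pyrophosphates and also on polyphosphate. Its signals were 143, 141, 25.9, 34.7 and 34.3. The first pair was nearly equal and lay far above the other 3, and the lowest signal was at 0.1 mM, not at the highest dose. DDP1 was 5.44-fold lower at 0.1 than at 0.01 mM, a difference matched or exceeded by 1.84% of genes, and then 1.34-fold higher at 1 than at 0.1 mM. The step difference was -2.18 ± 0.22 (adjusted p = 0.000683, limma). The line in dose order, which counts such a shape in part as error, had a slope of -0.61 ± 0.18 and an adjusted p = 0.0682.

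The 2 kinases that make inositol pyrophosphates had another shape, with lower signal already at 0.01 mM. KCS1 had signals of 169, 99.2, 61.0, 70.3 and 63.8, so the value at 0.01 mM lay between that at 0 mM and those at the higher doses. It was 1.70-fold lower at 0.01 than at 0 mM and 1.63-fold lower at 0.1 than at 0.01 mM, and 2.65-fold lower at 10 than at 0 mM. The step difference of -0.997 ± 0.27 passed (adjusted p = 0.0267, limma). Leaving out the array of 0, 0.1, 1 or 10 mM ended this call, with adjusted p-values of 0.108, 0.0762, 0.0720 and 0.0738, as did testing all probe sets without a filter (adjusted p = 0.0966, limma).

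VIP1 depended on which probe sets were used. The brightest of its 6 probe sets had signals of 106, 53.0, 26.5, 33.3 and 36.8, nearly the order of KCS1: 1.99-fold lower at 0.01 than at 0 mM and 2.004-fold lower again at 0.1 mM. A dimmer probe set also passed the filter, with 19.0, 7.59, 26.4, 12.9 and 21.4, which alternate from dose to dose and are highest at 0.1 mM, where the brightest is lowest. The suffix of its name (_s_at) marks a probe set that may bind other transcripts too. All 6 are VIP1 by the platform annotation alone; their target sequences were not checked here. The other 4 were below background on all arrays.

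The mean of both VIP1 probe sets had a step difference of -0.42 ± 0.30 and did not pass (adjusted p = 0.318, limma). By the brightest alone the step difference was -1.23 ± 0.32 with an adjusted p = 0.0257, and 5 of the 8 genes were then lower. On the line the brightest probe set had a slope of -0.37 ± 0.14 and an adjusted p = 0.121.

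**Figure D2:**
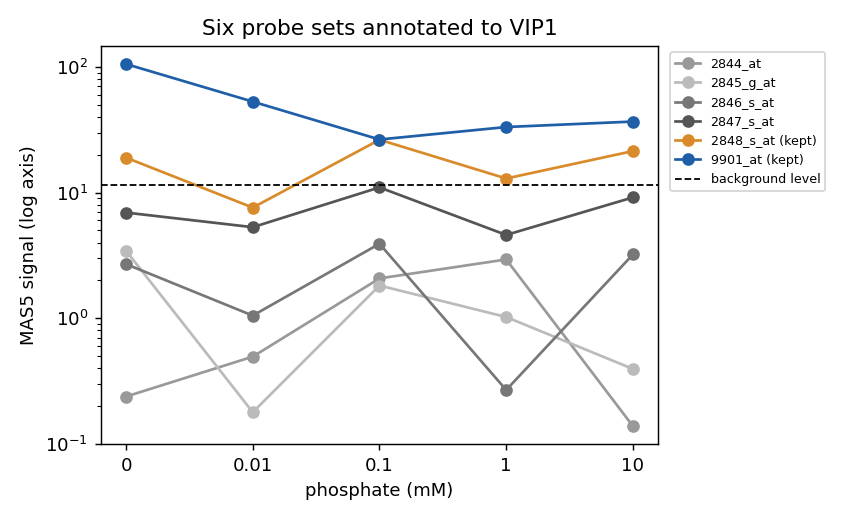
MAS5 signal (log axis) of the 6 probe sets annotated to VIP1 against phosphate dose, 1 array per dose, with the background level as a dashed line. The blue, brightest probe set goes from 106 to 26.5 between 0 and 0.1 mM, whereas the orange one is highest at 0.1 mM, and the 4 in grey lie below background.

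From 0 to 0.01 mM the measured genes did not all move one way. PHO85, PHO81 and DDP1 differed by 0.10, 0.09 and -0.02 (log2, 0.01 minus 0 mM), above the median gene at -0.24. KCS1 differed by -0.77, the brightest VIP1 probe set by -0.99, PHO80 by -0.58 and PHO4 by -0.48. Of the 8 genes 0 were 2-fold or more lower and 0 higher, where 6.84% and 2.16% of all genes were, and 14.8% of genes differed by as much as KCS1 or more in this direction. With 1 array per dose these differences have no test, and the array of 0.01 mM was the one where both ACT1 and TBP had their highest ratio of 3' to 5' signal, whose part in them was not tested.

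From 0.01 to 0.1 mM, 3 of the 8 genes, DDP1, PHO85 and PHO81, were 2-fold or more lower and 0 were higher, where 12.3% and 12.8% of all genes were. PHO4 was 1.70-fold higher over this pair. Beyond 0.1 mM, 0 of the 8 genes differed by 2-fold or more between 0.1 and 1 mM, where 1.24% of all genes were lower and 1.26% higher. The same count of 0 held between 1 and 10 mM, where 0.808% were lower and 0.498% higher.

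The RNA quality ratios differed over the same pair of arrays: ACT1 went from 3.00 to 1.11, TBP from 4.52 to 2.01. Arrays of 0 and 1 mM had similar ratios, 2.37 and 2.19 for ACT1 and 2.63 and 2.35 for TBP. Over that pair the signal of PHO85 was 169 and 55.1, that of PHO81 177 and 54.5, and that of DDP1 143 and 34.7. Without the array of 0.01 mM the step differences of PHO85, PHO81 and DDP1 were -1.67, -1.61 and -2.19, and each passed. The part of RNA quality in these differences was not tested.

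**Figure D3:**
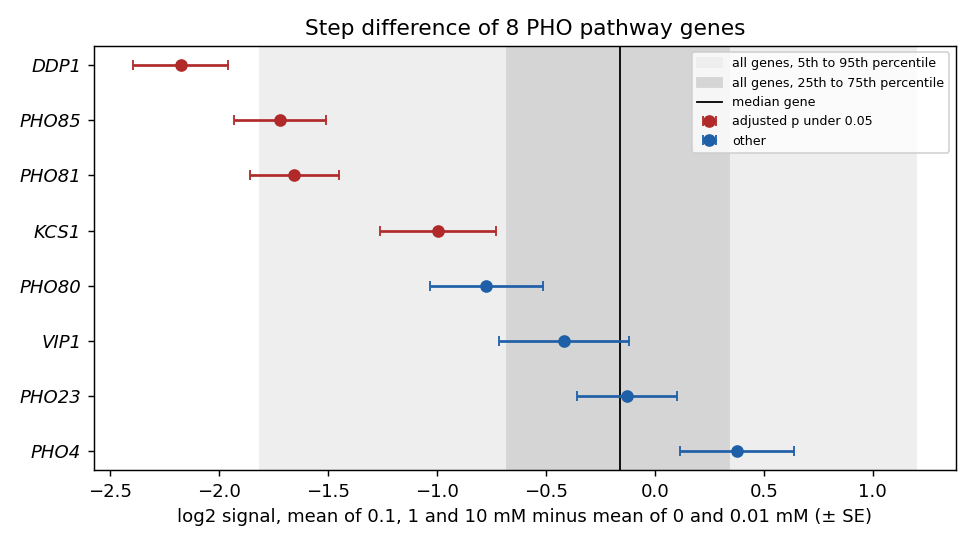
Step difference in log2 signal (mean of 0.1, 1 and 10 mM minus mean of 0 and 0.01 mM, bars ± SE from limma, 5 arrays) of the 8 measured genes, beside the spread of all 4824 genes in grey; VIP1 is the mean of 2 probe sets. DDP1 at -2.18 lies below the 5th percentile of all genes, and PHO85 and PHO81 at -1.72 and -1.66 lie near it, in the deposited scaling; with equal poly-A spike-in signal these values turned to 0.00175, 0.46 and 0.52.

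The transcription factor gene PHO4 had signals of 62.7, 44.8, 76.3, 54.3 and 78.8, lower at 0.01 and 1 mM than at the other doses. The groups of doses overlapped, and the step difference of 0.38 ± 0.26 did not pass in the deposited values (adjusted p = 0.303, limma). With arrays scaled to 1 median it was 0.70 (adjusted p = 0.0293) and after quantile normalization 0.67 (adjusted p = 0.0369), so its call depended on the scaling. The same alternation, low at 0.01 and 1 mM, was seen in the dimmer kept probe set of VIP1. The median gene had it in part only, with differences of -0.24, 0.01, -0.20 and 0.10 (log2) from each dose to the next. It was almost level between 0.01 and 0.1 mM. Over the same pairs PHO4 differed by -0.48, 0.77, -0.49 and 0.54. PHO2, the gene of the homeodomain partner of Pho4, had signals of 6.78, 4.21, 0.906, 1.00 and 0.914, all below background, so no fold is given.

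PHO23 had signals of 40.8, 37.1, 30.9, 33.3 and 43.8, the narrowest range of the 8 genes at 0.50 (log2). Its step difference was -0.13 ± 0.23 (adjusted p = 0.697, limma), and it turned to 0.19 both with arrays at 1 median and after quantile normalization. PHO92, whose product binds methylated mRNA, had signals between 0.730 and 3.21, below background at every dose.

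Among the 28 pairs of measured genes the dose profiles of PHO85 and PHO81 were the most alike. Likeness was taken as the root mean square difference of log2 signal over the 5 arrays after centring each gene on its own mean, so 0 means parallel profiles. For PHO85 and PHO81 it was 0.09, against a median of 0.82 between PHO85 and all 4823 other genes. PHO80, the cyclin of this kinase, differed from PHO85 by 0.52 and from PHO81 by 0.51, and was most like KCS1, at 0.19. DDP1 differed from PHO85 by 0.34 and from PHO81 by 0.36. These are descriptions of 5 arrays that all genes share, and many genes of the array have the same step.

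**Figure D4:**
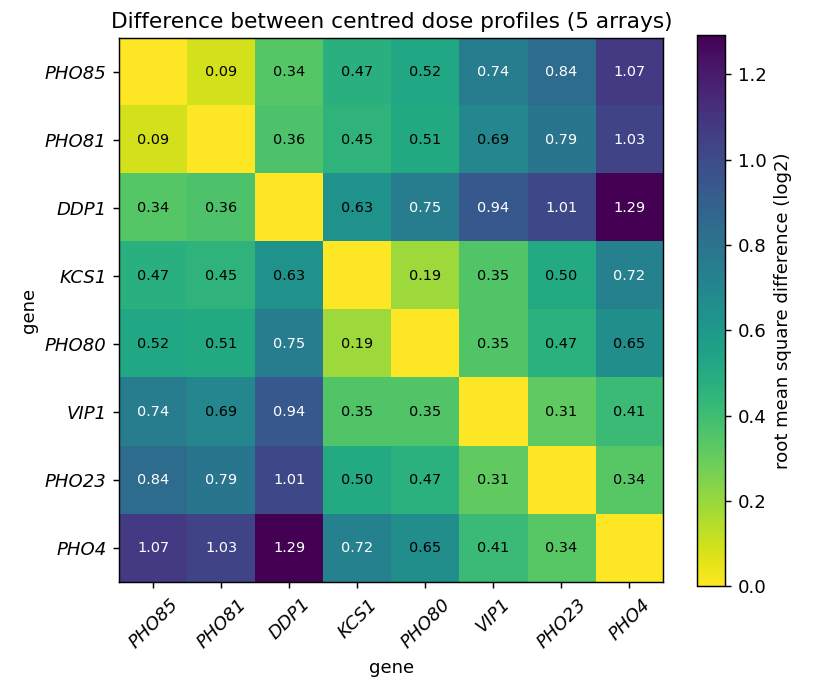
Root mean square difference (log2) between the centred dose profiles of each pair of the 8 measured genes over 5 arrays, with VIP1 as the mean of 2 probe sets; a small value (yellow) means near-parallel profiles. The pair PHO85 and PHO81 is closest at 0.09, and DDP1 and PHO4 are farthest apart at 1.29.

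For the 3 genes with the widest range over the doses, DDP1, PHO85 and PHO81, the 3 most similar profiles among all genes were looked up. Those nearest to PHO85 were YCR102C (0.02), PEP4, the gene of vacuolar proteinase A (0.09), and PHO81 itself. PEP4 had signals of 920.4, 837, 311, 284 and 247. Those nearest to PHO81 were VPS17, for a subunit of the retromer sorting complex (0.07), YDC1, for a ceramidase (0.07), and YOR034C-A (0.08), with PHO85 in rank 4. Nearest to DDP1 were YMR196W (0.11), CYB2, for the lactate dehydrogenase of mitochondria (0.12), and MTQ1, for a methyltransferase of translation release factors (0.13). None of the nearest genes of DDP1 was a member, and PHO85 and PHO81 came at ranks 110 and 136 of 4823.

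The output genes of the pathway had larger differences than most of the signalling genes. Of 22 listed Pho4 targets other than PHO81 and DDP1, 18 were measured. In the step comparison 15 were lower and 0 higher, where 22.0% and 11.4% of all genes were. On the line 13 fell and 0 rose, where 8.13% and 1.16% of all genes did. At an unadjusted p under 0.05 the step counts were 15 and 0, against 28.5% and 16.0% of all genes. Those on the line were 16 and 0, against 23.7% and 8.35%. SPL2 and GIT1, counted as lower and as falling, were above background at 0 and 0.01 mM only. The calls of these 2 genes rest on the background level. The median difference of the 18 targets between 10 and 0 mM was -2.89 (log2), against -1.37 for the 8 pathway genes and -0.26 for all genes. Their median at 0.01 mM relative to 0 mM was -0.27, close to the -0.24 of all genes. Single targets ran from -1.35 for PHO89 to 0.20 for PPN1. Of the 18 targets 1 was 2-fold or more lower over this pair, where 6.84% of all genes were. PHO5, for the secreted acid phosphatase, was 58.03-fold lower at 10 than at 0 mM. The phosphate transporter genes PHO84 and PHO89 were 50.04-fold and 43.7-fold lower, and PHM6 was 22.5-fold lower. At 10 mM PHO89 read 11.6 and PHM6 15.9, near the background level of 11.4, so these 2 folds depend on it. PHO89 was at background at 0.1 and 1 mM and PHM6 at 1 mM, so the sizes of their step differences depend on it too. In the step comparison DDP1 at -2.18 and PHO81 at -1.66 were within the range of the listed targets, between VTC1, a polyphosphate synthesis gene, at -2.26 and PPN1, a polyphosphatase gene, at -1.18. That range is not particular to targets: PHO85 at -1.72 and PLC1, a phospholipase C gene, at -1.66 lay in it without being listed. A step difference as low as that of PHO81 or lower was found in 6.32% of all genes.

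In the step comparison 22.0% of all genes were lower and 11.4% higher. Of 9 genes for other proteins with an SPX domain 5 were lower and 1 higher in it. The lower ones were VTC2, VTC3, VTC4, GDE1 and VTC5, the first 4 of which are also on the target list. VTC5, a subunit of the same polyphosphate polymerase, was 2.86-fold lower at 10 than at 0 mM, with a step difference of -1.01 ± 0.25 (adjusted p = 0.0202, limma). PHO90, for a low-affinity phosphate transporter, had signals of 129, 116, 397, 274 and 275. It was high where PHO81 was low, with a step difference of 1.34 ± 0.24 (adjusted p = 0.00641). The related transporter genes PHO87 and PHO91 did not pass.

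Other enzymes of inositol phosphate and phosphoinositide metabolism had 3 of 7 measured genes lower and 0 higher in the step comparison. Over all genes 22.0% were lower and 11.4% higher. At an unadjusted p under 0.05 the 7 had 4 lower and 0 higher, where 28.5% and 16.0% of all genes were. The median difference of the 7 between 10 and 0 mM was -0.88. PLC1, for the phospholipase C that releases the inositol phosphate precursor, had signals of 144, 105, 46.3, 34.2 and 37.5 and was 3.85-fold lower at 10 than at 0 mM. Its step difference was -1.66 ± 0.24 (adjusted p = 0.00303, limma), and it also fell on the line (adjusted p = 0.0396). SIW14, for a phosphatase that removes inositol pyrophosphates as Ddp1 does, had 162, 166, 49.9, 89.4 and 78.4. Like DDP1 it had nearly equal signals at 0 and 0.01 mM and its lowest at 0.1 mM, with a step difference of -1.22 ± 0.28 (adjusted p = 0.0158). ARG82, an inositol polyphosphate kinase gene, was above background at 0 and 0.01 mM only, with signals of 21.1 and 24.5, and its step difference of -0.99 ± 0.19 was set by the background level. IPK1 was not kept.

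Of 9 other cyclins of Pho85, all measured, 2 were lower in the step comparison, near the 22.0% of all genes: PCL9 (-0.99 ± 0.30) and PCL5 (-0.89 ± 0.25). PCL7 fell on the line, with signals of 86.2, 35.3, 38.5, 27.6 and 21.1, and was 4.08-fold lower at 10 than at 0 mM. In limma 0 cyclins were higher after adjustment, and 5 were lower and 0 higher at an unadjusted p under 0.05, where 28.5% and 16.0% of all genes were.

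Of 6 genes for partners of Pho4 and Pho2 and for their nuclear transport, 0 were lower and 1 was higher after adjustment (2 and 1 at an unadjusted p under 0.05). The shares of all genes were 22.0% and 11.4% (28.5% and 16.0% unadjusted). PSE1, the gene of the importin that carries Pho4 into the nucleus, had 240.1, 177, 304, 333 and 405, a step difference of 0.74 ± 0.24 (adjusted p = 0.0477, limma). MSN5, for the exportin of phosphorylated Pho4, had 73.8, 61.9, 49.1, 41.5 and 37.1. Its step difference of -0.68 ± 0.22 fell just short of passing (adjusted p = 0.0501, limma), so both genes lay close to the limit of 0.05.

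In the Rpd3L complex, which holds Pho23, 1 of 10 measured genes was lower and 0 were higher (3 and 0 at an unadjusted p under 0.05). The shares of all genes were 22.0% and 11.4% (28.5% and 16.0% unadjusted). The lower gene was ASH1, with signals of 229 and 44.3 at the ends of the doses. RPD3, for the deacetylase itself, had signals of 69.7, 69.3, 28.0, 47.6 and 53.2, lowest at 0.1 mM, and did not pass (RPD3 was named after its values were seen). Among 6 measured genes for chromatin factors of PHO promoters SNF2 was lower (-0.91 ± 0.27, adjusted p = 0.0378) and GCN5 and INO80 were higher (0.77 ± 0.25 and 0.61 ± 0.19, adjusted p = 0.0497 and 0.0460, limma). Of the 3 genes of the adenosine methyltransferase that makes the mark read by Pho92, IME4 and SLZ1 were below background, with signals of at most 3.50 and 2.94, and MUM2 had between 38.1 and 47.8.

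**Figure D5:**
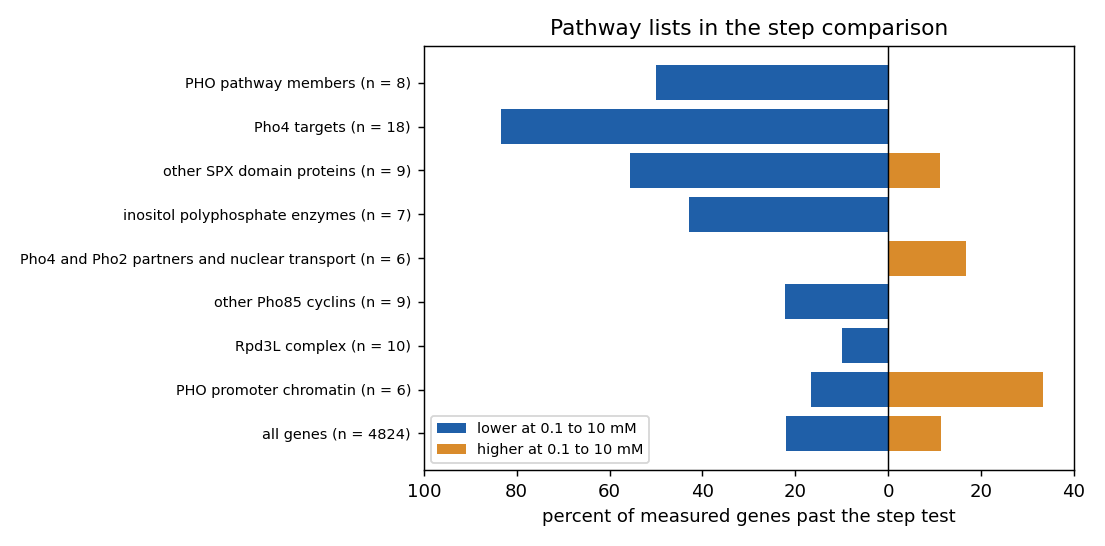
Percent of measured genes that were lower (blue, to the left) or higher (orange, to the right) at 0.1 to 10 mM than at 0 and 0.01 mM in limma after Benjamini-Hochberg adjustment, for the PHO pathway genes, 7 pathway lists and all 4824 genes, in the deposited scaling. Of the Pho4 targets 15 of 18 were lower, of the pathway genes 4 of 8, and of all genes 22.0%. SPL2 and GIT1 among the targets and ARG82 among the inositol enzymes were at background from 0.1 mM on. The targets PHO89, at 0.1 and 1 mM, and PHM6, at 1 mM, were at background on some of these arrays. With equal poly-A spike-in signal 0 of the 8 pathway genes were lower and 4 were higher.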

How the data were processed

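The authors deposited 1 intensity value per probe set and array on a linear scale, made with MAS5 per the submitters' processing notes (scaling target not given in the sources used here). No pair of arrays was at the same median. Probe sets were named through the platform annotation, updated by gene identifier to RefSeq assembly R64: 6504 had 1 gene, 328 several and 2503 were not listed. Values under 11.4 were set to it, log2 was taken, probe sets at or above it on at least 2 arrays were kept (5083) and averaged per gene (4824 genes). Limma 3.58.1 in R 4.3.3 fitted a line in dose order and the step comparison, with Benjamini-Hochberg adjustment at 0.05 over all genes. Both were also run on simulated data with independent noise of equal spread for all genes. Shifts shared by a whole array were not simulated. The error is the scatter of 5 arrays; their number limits the precision, and nothing in the labels says whether cultures were grown in parallel. The members, lists, tests and settings were chosen with earlier results of these data known. Genes named were all members, of each list those past either comparison (at most the 4 with the largest difference between 10 and 0 mM, or else 2), and the 3 nearest profiles of 3 members; PPN1, VTC1, PHO87, PHO91 and MSN5 were named after their values were seen.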

Additional observations from a re-analysis of the deposited data

How the results depend on the processing

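No paired analysis was possible because each dose had 1 array. With arrays at 1 median, 0 members fell on the line, 3 fell by 2-fold or more from 0 to 10 mM and 1, PHO4, was higher in the step comparison; over all genes 0 fell, 0 rose and 1136 were higher. Quantile normalization gave 0 members falling and 1 higher, and over all genes 2 falling, 2 rising and 1005 higher. With equal signal of 12 poly-A probe sets (3 at background left out, the shift applied after the floor) 0 members fell, 5 rose, 0 were lower and 4 higher in the step comparison, from 0 to 10 mM 0 fell and 8 rose by 2-fold or more; over all genes 23 fell, 4315 rose, 32 were lower and 3792 higher. The slopes then turned to 0.20 for DDP1, 0.48 for KCS1, 0.52 for PHO80, 0.29 for PHO81, 0.27 for PHO85 and 0.66 for VIP1. The step differences turned to 0.00175 for DDP1, 1.18 for KCS1, 1.41 for PHO80, 0.52 for PHO81, 0.46 for PHO85, 1.76 for VIP1 and 2.05 for PHO23. This shift is the same for every gene. A floor at the 60th percentile, 33.7, dropped PHO80, which reached it at 0 mM only. It left 0 members and 0 of all genes falling and 0 rising. VIP1 then passed as lower in the step comparison (-1.11, adjusted p = 0.0370 in limma). A floor at the 20th gave 88 rising and a VIP1 step difference of 0.00027 and kept all 10 members. PHO2 was above that floor at 0 and 0.01 mM only, so its step difference of -0.87 was set by the floor and the filter. A pseudocount in place of the floor gave 90 rising. No filter gave 0 members and 1 of all genes falling, 0 rising, 660 lower and 240 higher. Log10 dose, with 0 mM at 0.001 mM, has the spacing of dose order and changed no count. The PHO23 step difference was 0.19 with arrays at 1 median and 0.19 after quantile normalization.

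Leaving out 1 array in turn gave 0 to 4 members falling and 3 to 6 lower in the step comparison; over all genes 0 to 783 fell, 0 to 257 rose, 572 to 1097 were lower and 267 to 631 higher. The VIP1 slope ranged from -0.32 to 0.022 and its step difference from -0.85 (without 0.01 mM, where it passed with an adjusted p = 0.0452 in limma) to 0.014 (without 0 mM), and the PHO23 slope from -0.11 to 0.083. Without 0 or 0.01 mM the lone low-dose array is assumed to vary like the others. The step calls of PHO85, PHO81 and DDP1 held in 13 of 14 settings each, the exception being the spike-in scaling. The median relative to all genes stayed between -1.34 and -0.67, over the members kept in each setting, which were not the same in all. The cause of these changes was not tested.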
